A study of Homo sapiens with 32 samples.

Results

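A set of 10 genes of the Hippo pathway and of its YAP/TEAD output was followed in human RPE-1 cells through the first 15 h of serum stimulation. They were chosen by name: CCN1, CCN2 and ANKRD1 as target genes, AMOTL1, AMOTL2 and LATS2 as restraints on YAP, the LIM protein AJUBA, the DNA-binding factor TEAD1 and the coactivators YAP1 and WWTR1. All 10 were found among the 19023 genes of the count table by their Ensembl identifiers, and all 10 passed the filter on low counts in both assays. RPE-1 is an immortalised line of human retinal pigment epithelial cells, used here as wild-type cells. Each of the groups was grown without serum for 18 h; the 0 h group was collected then, and the other groups after 5 h, 10 h or 15 h of serum. Every time point had 4 biological replicates for RNA-seq of total RNA depleted of ribosomal RNA and 4 for Ribo-seq, which sequences the mRNA fragments (footprints) that ribosomes protect. No later group was kept starved, and an effect of serum cannot be told apart from one of elapsed time.

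The Hippo pathway is a kinase cascade in which STK3 and STK4 activate LATS1 and LATS2, which phosphorylate the coactivators YAP1 and WWTR1 (the gene of TAZ) and keep them out of the nucleus. When the cascade is off, the coactivators enter the nucleus, bind TEAD factors and switch on target genes; some of these, such as AMOTL2 and LATS2, encode proteins that restrain YAP in turn. Serum is a known inhibitor of the cascade, through lysophospholipids that act on G protein-coupled receptors and the actin cytoskeleton. TEAD factors bind the sequence GGAATG, known from the M-CAT element of muscle genes.

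The promoters given here are those of CCN2, ANKRD1 and AMOTL2, the genes called higher after serum in both assays for which a promoter entry was found. Promoter entries were at hand for 8 of the 10 members, in 11 windows of the 250 bases before a RefSeq start (GRCh38.p14). CCN1 and TEAD1 had no promoter entry, so their promoters were not searched. GGAATG was searched on both strands (CATTCC on the other strand) and no other motif was searched. It is in capitals, each sequence running 5′ to 3′ on the strand of its gene.
CCN2, chr6:131951373-131951622, minus strand: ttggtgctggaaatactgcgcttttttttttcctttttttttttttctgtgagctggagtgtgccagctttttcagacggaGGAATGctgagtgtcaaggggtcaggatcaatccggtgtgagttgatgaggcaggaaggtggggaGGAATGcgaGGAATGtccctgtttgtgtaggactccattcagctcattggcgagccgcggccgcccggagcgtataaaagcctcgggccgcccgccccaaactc
ANKRD1, chr10:90921088-90921337, minus strand: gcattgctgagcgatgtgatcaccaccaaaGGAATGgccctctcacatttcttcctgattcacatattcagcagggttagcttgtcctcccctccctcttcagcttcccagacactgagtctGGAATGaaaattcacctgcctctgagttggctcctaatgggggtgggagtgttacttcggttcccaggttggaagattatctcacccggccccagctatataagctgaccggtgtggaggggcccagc
AMOTL2, chr3:134374448-134374697, minus strand: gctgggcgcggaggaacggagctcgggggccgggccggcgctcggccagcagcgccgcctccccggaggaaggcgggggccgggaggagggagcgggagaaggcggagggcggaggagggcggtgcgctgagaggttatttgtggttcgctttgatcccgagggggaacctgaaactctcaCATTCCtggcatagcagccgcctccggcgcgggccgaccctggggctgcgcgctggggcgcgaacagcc
The CCN2 window held 3 copies in the direction of transcription, which began 169, 104 and 95 bases before the start site. The ANKRD1 window held 2, at 220 and 128 bases, and the AMOTL2 window held 1 on the opposite strand, at 69 bases. A second AMOTL2 start site held 0. AJUBA and YAP1 held 1 copy each, at 59 and 162 bases, and a second AJUBA start site held 0. The windows of AMOTL1, LATS2 and WWTR1 also held 0. Of 35116 windows of this length over all genes with a promoter entry, 11.9% held at least 1 copy, 0.94% at least 2 and 0.0826% at least 3. These matches describe letters in a window, and bound TEAD was not measured.

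Total counts ran from 595851 to 1107470 per RNA library and from 2851423 to 9901322 per footprint library. Values below are CPM (counts scaled to a common library total) on library sizes scaled with TMM factors, and a level per length is an RPKM from the same sizes and the deposited coding length. No replicates of a group agreed within sampling noise, so none was counted as a duplicate. The RNA libraries numbered 2 stood apart at 5 h, 10 h and 15 h: pairs that included one differed by a chi-square per degree of freedom of 4.34 to 11.2, against 1.41 to 4.29 for the other pairs. At 0, 5, 10 and 15 h, 5, 7, 8 and 7 of the 10 genes were highest in that RNA library. The footprint library numbered 2 also stood apart at 5 h. Its pairs had a chi-square per degree of freedom of 4.58 to 6.44, against 1.83 to 2.65 for the other pairs. Of 8 markers of retinal pigment epithelium, the defining enzyme RPE65 had 0 RNA counts at 0 h and MITF had a mean of 28.9 CPM. The keratins KRT8 and KRT18 had 605 and 787 CPM and the mesenchymal filament gene VIM 6997 CPM, while CDH1 had 0 RNA counts at 0 h. Of 5 markers of blood cells, HBB and HBA1 had 0 counts in every RNA and footprint group, and PTPRC and CD14 had at most 10 counts in any group of 4 libraries. CD68, a lysosomal gene that is not restricted to blood, had a mean of 20.9 CPM in RNA and 88.4 CPM in footprints at 0 h, and the summed blood list was 75.1 to 97.1 footprint CPM at 0 h and 86.1 to 112 at 5 h. In footprints, the summed level of the 8 pigment epithelium markers was 92.3 to 108 CPM at 0 h and 34.9 to 37.6 CPM at 5 h. It was 67.5 to 75.9 CPM at 10 h and 55.6 to 61.8 CPM at 15 h. Most of it was MITF, with mean footprints of 56.2 CPM at 0 h and 23.8 at 5 h, and OTX2, with 37.1 and 7.40. TYRP1 went the other way, with 2.39 and 2.54 CPM. The summed level of the 4 epithelial markers was 872 to 1060.3 CPM at 0 h and 1513 to 1741 CPM at 5 h. Nearly all of it was KRT8 and KRT18, as EPCAM and CDH1 had at most 3 counts in any footprint group. The summed level of the 3 mesenchymal markers was 18252 to 21049 CPM and 25745 to 27137 CPM at these 2 times. Mean VIM footprints were 2565 CPM at 0 h and 10500 at 5 h, beside 6997 and 5416 CPM in RNA. FN1 went against the summed level, with mean footprints of 16550 CPM at 0 h and 14612 CPM at 5 h. Mean CDH2 footprints were 579 and 1321 CPM. The part of these markers in the results was not tested.

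Calls rest on edgeR's quasi-likelihood test, 2-sided, with a threshold of 0.05 on p after Benjamini-Hochberg adjustment across every gene tested. At 5 h against 0 h, 4 of the 10 genes were called higher in RNA and 1 lower, where 19.2% of all 8775 genes tested were called higher and 16.7% lower. The median log2 change of the 10 genes was 0.41, against -0.03 over all genes. The 10 genes were chosen with earlier results of these data known, so such comparisons describe them and do not test the set. In footprints at 5 h, 7 were called higher and 2 lower, beside 35.2% higher and 40.5% lower among 10959 genes. The 3 contrasts with 0 h share the 0 h libraries. There was no spike-in, so changes are measured against the remaining genes of each assay, and in bulk libraries a change in fewer cells and a change in RNA per cell cannot be told apart. At 10 h, RNA calls were 4 higher and 2 lower (background 23.3% and 21.5%) and footprint calls were also 4 higher and 2 lower (39.4% and 39%). At 15 h, RNA calls were 4 higher and 1 lower (25.4% in each direction) and footprint calls were 5 higher and 3 lower (40.1% and 39.6%). CCN1, CCN2, ANKRD1 and AMOTL2 were the 4 genes called higher in both assays at each of the 3 times. The share of all genes that met this joint rule was not counted.

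Together the 10 genes took up 0.241 ± 0.0128% (SD, n = 4) of footprint counts at 0 h and 0.728 ± 0.0424% at 5 h. At 10 h and 15 h their share was 0.664 ± 0.0152% and 0.715 ± 0.0122%. In RNA the share went from 0.104 ± 0.00761% at 0 h to 0.408 ± 0.0272% at 5 h and 0.457 ± 0.0376% at 15 h. The libraries at 0 h did not overlap with those of any later time in either assay. Most of these counts came from few of the genes. In footprints at 5 h, CCN1 had a mean of 3423 CPM, ANKRD1 2045 and CCN2 1112, and the next, AMOTL2, had 330. In RNA at 5 h, ANKRD1 had a mean of 3121 CPM and the next, CCN1, had 355. The summed share thus does not describe each of the 10 genes.

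**Figure D1:**
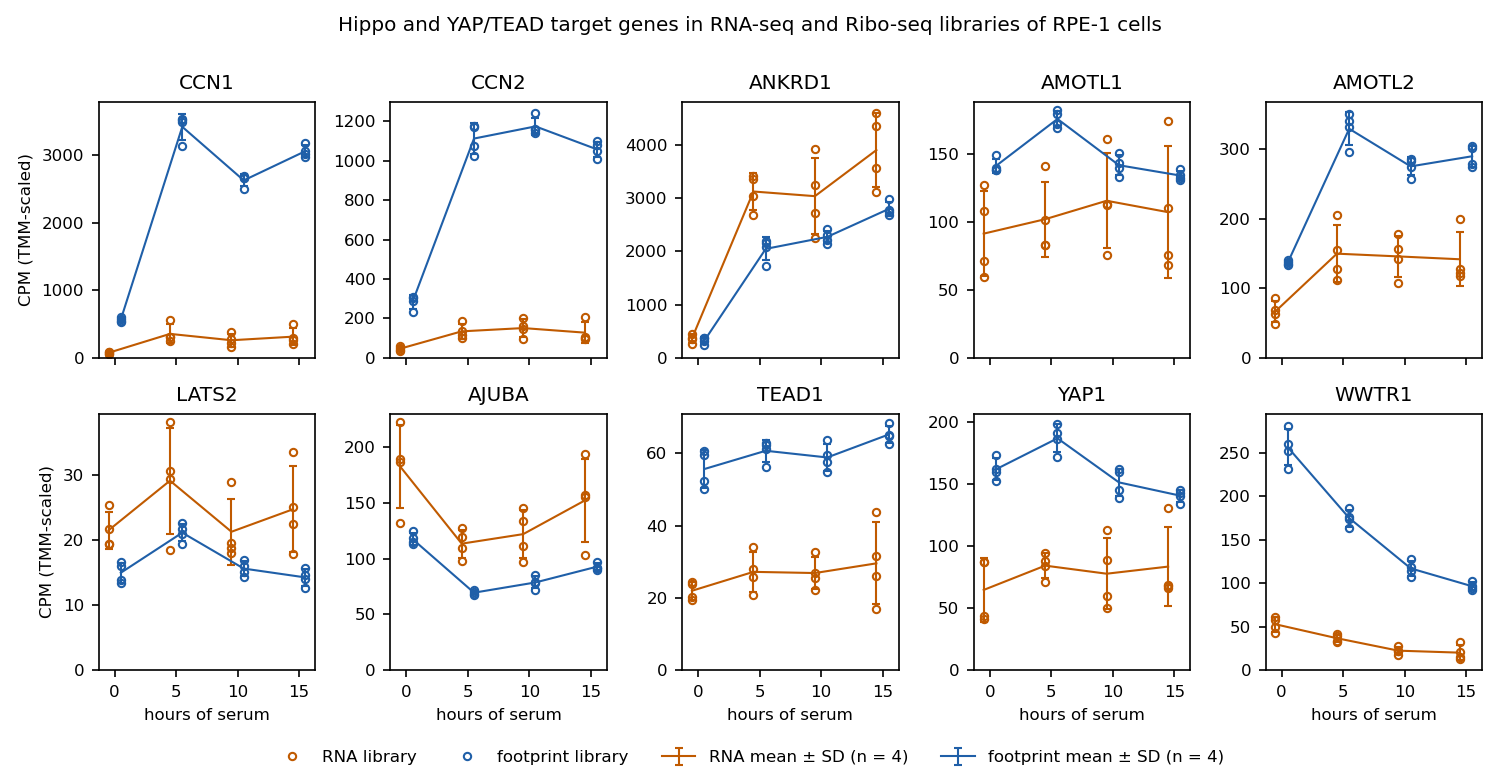
Level of each gene in CPM (y axis, from 0) against hours of serum (x axis) in every RNA and footprint library, with the mean and SD of 4 libraries. CCN1 footprints sit between 533 and 612 at 0 h and between 3131 and 3540 at 5 h, while WWTR1 footprints are lower at each later time.

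CCN1 (also CYR61) encodes a secreted matricellular protein that binds integrins. Its footprints were 551, 612, 570 and 533 CPM in replicates 1 to 4 at 0 h and 3131, 3540, 3490.2 and 3529 CPM at 5 h. At 10 h they were 2498, 2667, 2693 and 2657 CPM, and at 15 h 3023, 3185, 2969 and 3069 CPM. The 4 times did not overlap except at 5 h and 15 h, where replicate 1 at 5 h lay among the 15 h libraries. The log2 change was 2.59 ± 0.06 (SE) at 5 h, with an edgeR adjusted p of 8.46e-33. Footprints then fell by 0.38 ± 0.05 from 5 h to 10 h (adjusted p = 5.53e-08) and rose by 0.22 ± 0.05 from 10 h to 15 h (adjusted p = 0.000844).

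CCN1 RNA was 54.5, 91.1, 88.1 and 64.3 CPM at 0 h and 245, 563, 305 and 307 CPM at 5 h. At 15 h it was 207, 498, 257 and 293 CPM. Every later library was above every 0 h library, and replicate 2 was the highest at each later time. The RNA log2 change was 2.25 ± 0.33 at 5 h (edgeR adjusted p = 3.05e-05), 1.81 ± 0.33 at 10 h and 2.07 ± 0.33 at 15 h. With every library numbered 2 left out, it was 1.99, 1.69 and 1.88. The changes of CCN1 RNA between 5 h and 10 h (-0.45 ± 0.30) and between 10 h and 15 h (0.27 ± 0.30) were not called.

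CCN2 (also CTGF) encodes a second secreted protein of the same family, known for its part in fibrosis. Its footprints were 288, 301, 311 and 234 CPM at 0 h and 1022, 1077, 1178 and 1173 CPM at 5 h. At 10 h they were 1161, 1142, 1154 and 1239 CPM and at 15 h 1098, 1007, 1077 and 1049 CPM. The 0 h libraries lay below all others, and the 5 h libraries overlapped with those of both later times. Footprints rose by 1.97 ± 0.07 at 5 h (edgeR adjusted p = 7.19e-26), 2.05 ± 0.07 at 10 h and 1.90 ± 0.07 at 15 h on the log2 scale.

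The CCN2 contrast of 15 h with 10 h was -0.15 ± 0.06 in footprints (edgeR adjusted p = 0.0464). That call ended on leaving out any 1 of 8 of the 16 libraries, namely 5 h replicate 2, all 4 of the 10 h libraries and 15 h replicates 2, 3 and 4, with an adjusted p up to 0.131. CCN2 RNA was 32.7, 49.8, 62.1 and 41.9 CPM at 0 h and 100.1, 188, 134 and 116 CPM at 5 h. At 15 h replicate 2 had 206 CPM and the other 3 libraries 97.7 to 107 CPM. All later RNA libraries were above the 0 h libraries, with log2 changes of 1.54 ± 0.29, 1.70 ± 0.29 and 1.47 ± 0.29 at 5, 10 and 15 h. Without the libraries numbered 2 these were 1.30, 1.55 and 1.18.

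ANKRD1 encodes an ankyrin-repeat protein (CARP) of the nucleus and the sarcomere. It had the highest RNA level per length of the 10 genes at every time. Its RNA was 454, 362, 263 and 381 CPM at 0 h and 3040, 2676, 3406 and 3362 CPM at 5 h. At 15 h it was 4591, 3104, 3555 and 4345 CPM, which overlapped with the 5 h values and lay far above those of 0 h. The RNA log2 change was 3.09 ± 0.19 at 5 h (edgeR adjusted p = 2.81e-11), 3.05 ± 0.19 at 10 h and 3.41 ± 0.19 at 15 h, a fold of 10.7 at the last.

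ANKRD1 footprints were 367, 309, 367 and 237 CPM at 0 h and 2086, 1728, 2201 and 2163 CPM at 5 h. At 10 h they were 2312, 2140, 2415 and 2213 CPM and at 15 h 2685, 2734, 2770.3 and 2984 CPM. The 15 h libraries lay above all earlier ones. Footprints rose by 2.68 ± 0.12 at 5 h (edgeR adjusted p = 1.62e-11), 2.83 ± 0.12 at 10 h and 3.13 ± 0.12 at 15 h. The step from 10 h to 15 h, 0.30 ± 0.11, had an adjusted p of 0.0429. It was no longer called on leaving out any 1 of 12 of the 16 libraries (all but 0 h replicates 1, 3 and 4 and 5 h replicate 2), with an adjusted p up to 0.114.

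**Figure D2:**
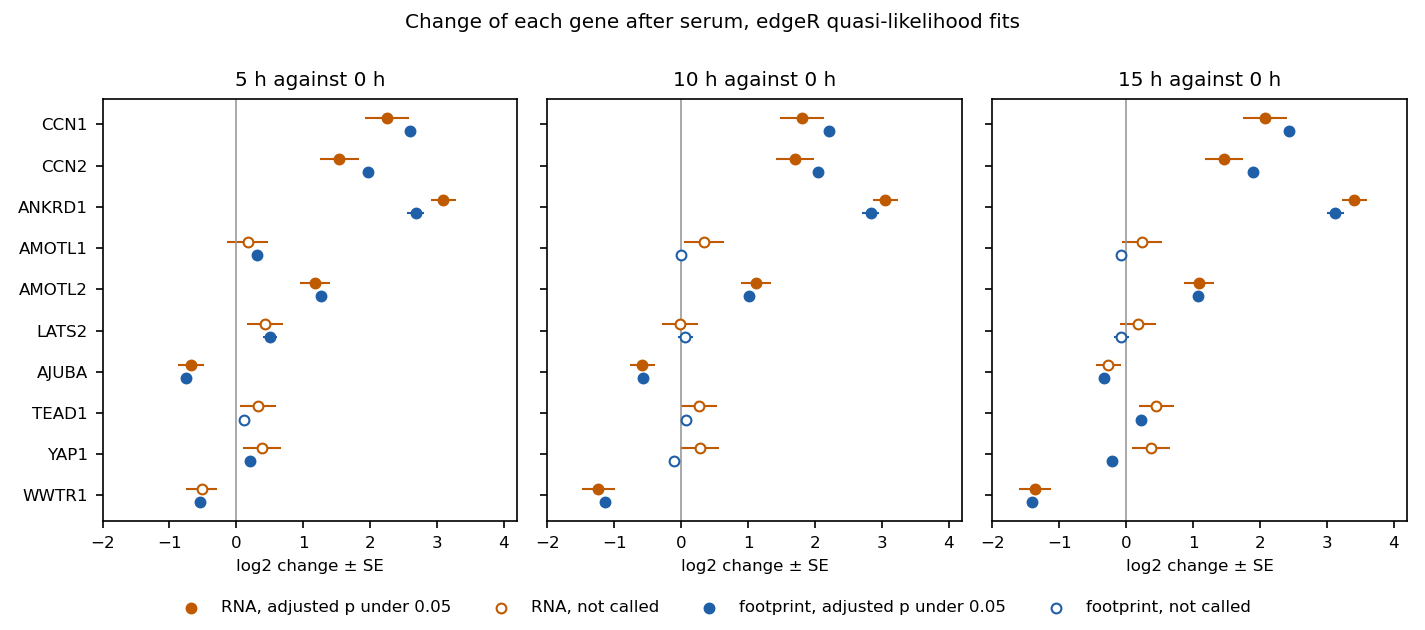
Log2 change against 0 h (x axis, bars are SE of the fit) for each gene (y axis) at 5, 10 and 15 h in RNA and footprints; filled points were called by edgeR at an adjusted p under 0.05. CCN1, CCN2, ANKRD1 and AMOTL2 are filled and right of 0 throughout, and WWTR1 moves left from -0.55 at 5 h to -1.41 at 15 h in footprints.

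AMOTL1 and AMOTL2 encode angiomotin-like proteins that hold YAP at junctions and in the cytoplasm, and AMOTL2 is itself a YAP/TEAD target. AMOTL2 footprints were 136, 134, 138 and 140 CPM at 0 h and 333, 295, 350.2 and 340.1 CPM at 5 h. At 10 h they were 275, 257, 283 and 286 CPM and at 15 h 301, 279, 275 and 305 CPM. No later library came near the 0 h level. Footprints rose by 1.27 ± 0.06 at 5 h (edgeR adjusted p = 2.97e-22), fell by 0.26 ± 0.05 from 5 h to 10 h (adjusted p = 5.2e-05) and were 1.08 ± 0.06 above 0 h at 15 h.

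AMOTL2 RNA was 69, 62.5, 86.6 and 49.3 CPM at 0 h and 112, 206, 127 and 155 CPM at 5 h, with no overlap. Its RNA log2 change was 1.17 ± 0.23 at 5 h (edgeR adjusted p = 0.00034), 1.12 ± 0.23 at 10 h and 1.09 ± 0.23 at 15 h. Without the libraries numbered 2 these were 0.87, 0.97 and 0.84, and all 3 were still called.

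AMOTL1 was called in footprints at 5 h and not at 10 h or 15 h against 0 h. Its footprints were 140, 138, 139 and 149.6 CPM at 0 h and 169.7, 172, 179 and 183 CPM at 5 h, without overlap. They rose by 0.31 ± 0.05 at 5 h (edgeR adjusted p = 1.3e-06) and fell by 0.31 ± 0.05 from 5 h to 10 h (adjusted p = 1.26e-06). At 10 h and 15 h the values of 133 to 151 CPM and 131 to 139 CPM overlapped with 0 h. The log2 changes of AMOTL1 footprints against 0 h were then 0.00 ± 0.05 and -0.07 ± 0.05, not called. AMOTL1 RNA ranged from 59.4 to 127 CPM at 0 h and from 82.8 to 141 CPM at 5 h, and was not called in any contrast.

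LATS2 encodes a kinase that phosphorylates YAP and is also a YAP target. It had the lowest level per length of the 10 genes in both assays at every time. Its footprints were 15.98, 13.4, 13.9 and 16.6 CPM at 0 h and 19.4, 20.9, 22.5 and 21.7 CPM at 5 h, with no overlap. Footprints rose by 0.50 ± 0.11 at 5 h (edgeR adjusted p = 6.4e-05) and fell by 0.44 ± 0.10 from 5 h to 10 h (adjusted p = 0.000146). At 10 h and 15 h the LATS2 values of 14.3 to 16.97 CPM and 12.6 to 15.8 CPM overlapped with those of 0 h. LATS2 RNA rested on 12 to 38 counts per library and no contrast was called.

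AJUBA encodes a LIM protein that binds LATS kinases and holds them inactive. Its footprints were 125, 113, 119 and 115 CPM at 0 h and 70.02, 68.7, 67.8 and 71.5 CPM at 5 h. At 10 h they were 72.1, 79.1, 85.3 and 78.4 CPM, and at 15 h 92.0, 97.4, 91.8 and 90.3 CPM. None of the 4 times overlapped. AJUBA fell by 0.75 ± 0.06 at 5 h (edgeR adjusted p = 1.03e-14) and rose by 0.18 ± 0.06 from 5 h to 10 h (adjusted p = 0.00718) and by 0.24 ± 0.06 from 10 h to 15 h (adjusted p = 0.000745). Without the footprint libraries numbered 3 the first of those rises was 0.12, with an adjusted p of 0.138. At 15 h AJUBA footprints were still lower than at 0 h, by -0.34 ± 0.06.

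AJUBA RNA was 132, 189.6, 222 and 187 CPM at 0 h and 98.3, 119, 127 and 109 CPM at 5 h. The log2 change was -0.68 ± 0.19 at 5 h (edgeR adjusted p = 0.00799), with no overlap, and it missed the threshold without the libraries numbered 4 (adjusted p = 0.0607). At 10 h it was -0.58 ± 0.19 (adjusted p = 0.0156), although the groups overlapped. The 10 h call ended without 0 h replicate 3, 10 h replicate 1 or 10 h replicate 4, with an adjusted p of 0.0518 to 0.09. At 15 h the AJUBA change in RNA, -0.26 ± 0.19, was not called.

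TEAD1 encodes the DNA-binding partner through which YAP and TAZ act. Its footprints were 52.4, 50.1, 59.6 and 60.6 CPM at 0 h and 65.1, 65.0, 62.5 and 68.4 CPM at 15 h. All 15 h libraries were above all 0 h libraries, and the 5 h and 10 h libraries (54.9 to 63.6 CPM) overlapped with 0 h. The change was 0.22 ± 0.07 at 15 h (edgeR adjusted p = 0.0043), and the adjusted p was 0.0519 without the libraries numbered 2. At 5 h, 0.12 ± 0.07, it was not called (adjusted p = 0.125), but was called without 0 h replicate 4 (adjusted p = 0.0459). TEAD1 RNA rested on 12 to 47 counts per library and was not called; its 15 h change of 0.45 ± 0.26 had an adjusted p of 0.16, and of 0.0338 without 15 h replicate 3.

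YAP1 and WWTR1 encode the paired coactivators YAP and TAZ, which share TEAD partners and are both restrained by LATS kinases. WWTR1 footprints were 260, 252, 281 and 232 CPM at 0 h and 176, 163, 173 and 187 CPM at 5 h. At 10 h they were 128, 107, 114 and 119 CPM, and at 15 h 94.3, 96.9, 103 and 91.8 CPM. None of the 4 times overlapped, and each was lower than the time before. WWTR1 footprints fell by 0.55 ± 0.06 at 5 h (edgeR adjusted p = 6.5e-11), by a further 0.58 ± 0.06 to 10 h (adjusted p = 4.13e-11) and by a further 0.28 ± 0.06 to 15 h (adjusted p = 0.000408). At 15 h the level was lower than at 0 h by a log2 change of -1.41 ± 0.06.

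WWTR1 RNA was 42.4, 61.4, 57.8 and 49.3 CPM at 0 h and 32.8, 39.1, 41.2 and 33.5 CPM at 5 h. At 10 h it was 22.5, 27.9, 21.9 and 17.1 CPM, and at 15 h 14.7, 31.8, 12.9 and 20.8 CPM. The 10 h values rested on 14 to 29 counts per library and the 15 h values on 10 to 34. The groups at 0, 5 and 10 h did not overlap with each other, and the 10 h and 15 h groups did. The RNA log2 change was -0.52 ± 0.23 at 5 h (edgeR adjusted p = 0.0872), -1.24 ± 0.24 at 10 h (adjusted p = 0.000288) and -1.36 ± 0.25 at 15 h (adjusted p = 9.17e-05). The 5 h value was called without 0 h replicate 1 (adjusted p = 0.0424).

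The YAP1 changes were smaller in size. Its footprints were 152, 160, 162 and 173 CPM at 0 h, 186, 172, 198 and 190 CPM at 5 h, and 134, 142, 145 and 140 CPM at 15 h. The 15 h libraries were below all those of 0 h, while 5 h replicate 2 fell below 0 h replicate 4. YAP1 footprints rose by 0.20 ± 0.06 at 5 h (edgeR adjusted p = 0.00156), fell by 0.31 ± 0.06 from 5 h to 10 h (adjusted p = 7.52e-06) and were at -0.20 ± 0.06 against 0 h at 15 h (adjusted p = 0.00156). At 10 h, -0.10 ± 0.06 was not called (adjusted p = 0.0938), but was without 10 h replicate 4 (adjusted p = 0.0451). YAP1 RNA was 41.2, 86.9, 86.6 and 43.3 CPM at 0 h, with replicates 2 and 3 at about the level of 5 h (70.7 to 94.3 CPM), and no RNA contrast was called.

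The RNA contrast of 10 h with 5 h called 1 of the 10 genes, WWTR1, at -0.72 ± 0.25 with an edgeR adjusted p of 0.047, where 10.1% of all genes were called higher and 9.56% lower. That call ended without any 1 of 13 of the 16 libraries (all but 10 h replicate 2 and 15 h replicates 2 and 3), with an adjusted p up to 0.156. From 10 h to 15 h edgeR called 0 of the 10 genes in RNA (background 3.81% higher and 2.11% lower), as did DESeq2; at an unadjusted p under 0.05 there was 1, ANKRD1. The share of all genes at that unadjusted threshold was not counted. ANKRD1 was called without 10 h replicate 1, at 0.55 with an adjusted p of 0.0482. In footprints, 1 gene was called higher and 6 lower at 10 h against 5 h (31% and 30.7% of all genes), with a median of -0.28 against -0.01 over all genes. The 6 were CCN1, AMOTL1, AMOTL2, LATS2, YAP1 and WWTR1, and AJUBA was the gene called higher. ANKRD1 joined it, at 0.15 with an adjusted p of 0.041, when 0 h replicate 4 was left out. From 10 h to 15 h, 3 were called higher in footprints (CCN1, ANKRD1 and AJUBA) and 2 lower (CCN2 and WWTR1), beside 20.8% and 20.2% of all genes. TEAD1, at 0.15 ± 0.06 with an adjusted p of 0.0584, was called without 5 h replicate 2 or 10 h replicate 1 (adjusted p = 0.0334 to 0.0443). It was also called with RLE factors (adjusted p = 0.0498), in a fit of only the groups compared (0.0495) and without the libraries numbered 1 (0.0456), and over all alternatives the adjusted p ran from 0.0334 to 0.221.

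Translational efficiency (TE) compares the 2 assays: its change is what remains of the footprint change, on the log2 scale, once the RNA change is taken off. It was tested through the interaction of assay and time in 1 edgeR fit over 32 libraries and 8736 genes. None of the 10 genes was called in any of the 5 TE contrasts by edgeR, and 0 were called by DESeq2. The background was 4.13% higher and 2.34% lower at 5 h, 5.44% and 1.8% at 10 h and 7.03% and 3.94% at 15 h, all against 0 h. It was 0.595% and 0.0572% for 10 h against 5 h, and 0% in each direction for 15 h against 10 h. At an unadjusted p under 0.05 there was 1 gene at 5 h, ANKRD1, with a TE change of -0.46 ± 0.21 (edgeR adjusted p = 0.21). There was also 1 at 15 h, YAP1, with -0.72 ± 0.27 (edgeR adjusted p = 0.0866), and 0 in each of the other 3 contrasts. The share of all genes at that unadjusted threshold was not counted, so these counts have no background beside them.

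YAP1 at 15 h was called in TE when RNA 0 h replicate 2, RNA 15 h replicate 3 or footprint 0 h replicate 1 was left out, with changes of -0.90 to -0.83 and an adjusted p of 0.0345 to 0.048. ANKRD1 at 15 h, at -0.42 ± 0.21 (adjusted p = 0.21), was called without footprint 0 h replicate 4 (adjusted p = 0.0431). For CCN1 and CCN2 the TE changes at 5 h were 0.29 ± 0.34 and 0.38 ± 0.30. The SE of the 10 genes in RNA at 5 h was 0.19 to 0.33, and that of their TE changes was at least 0.18.

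Per coding length, the order of the 10 genes differed between the assays. In RNA at 0 h, ANKRD1 had 406 ± 87.7 RPKM (SD, n = 4), AJUBA 117 ± 24.05, CCN1 68.6 ± 16.5, CCN2 47.1 ± 12.6, WWTR1 46.1 ± 7.48 and YAP1 44.3 ± 17.7. Next came AMOTL1 at 34.4 ± 11.8, AMOTL2 at 27.3 ± 6.32, TEAD1 at 20.98 ± 2.42 and LATS2 at 6.70 ± 0.885 RPKM. The neighbours from CCN1 to TEAD1 overlapped in their libraries, while AJUBA stood between ANKRD1 and CCN1 and LATS2 stood below the rest. In footprints at 0 h, CCN1 led with 522 ± 31.4 RPKM, before ANKRD1 at 356 ± 68.6, CCN2 at 286 ± 34.7 and WWTR1 at 224 ± 18.0. Then came YAP1 at 111 ± 5.99, AJUBA at 75.6 ± 3.33, AMOTL2 at 55.8 ± 1.14, TEAD1 at 53.2 ± 4.97, AMOTL1 at 53.2 ± 2.05 and LATS2 at 4.66 ± 0.484. ANKRD1, CCN2 and WWTR1 overlapped as neighbours, as did AMOTL2, TEAD1 and AMOTL1. At 15 h ANKRD1 led in footprints with 3104 ± 147 RPKM, before CCN1 at 2819 ± 84.7 without overlap, and WWTR1 had gone from the fourth place to below AMOTL2 and YAP1 with 84.4 ± 4.10.

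Footprint RPKM divided by RNA RPKM gives a footprint level per RNA, whose median over 8736 genes was 0.793 at 0 h and 0.851 at 15 h. The ratio was 7.61 for CCN1, 6.08 for CCN2 and 4.86 for WWTR1 at 0 h, the 3 highest of the 10 genes. At 15 h these were 9.76, 8.27 and 4.81, so that the WWTR1 ratio was nearly the same at levels that were lower in both assays. ANKRD1, with 0.877 at 0 h and 0.716 at 15 h, LATS2 with 0.696 and 0.576, and AJUBA with 0.644 and 0.61 had the 3 lowest. For YAP1 the ratio was 2.505 before serum and 2.22, 1.95 and 1.68 at the 3 later times in order. The ratios are descriptions across assays that were scaled apart, and the TE tests above bear on their changes.

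**Figure D3:**
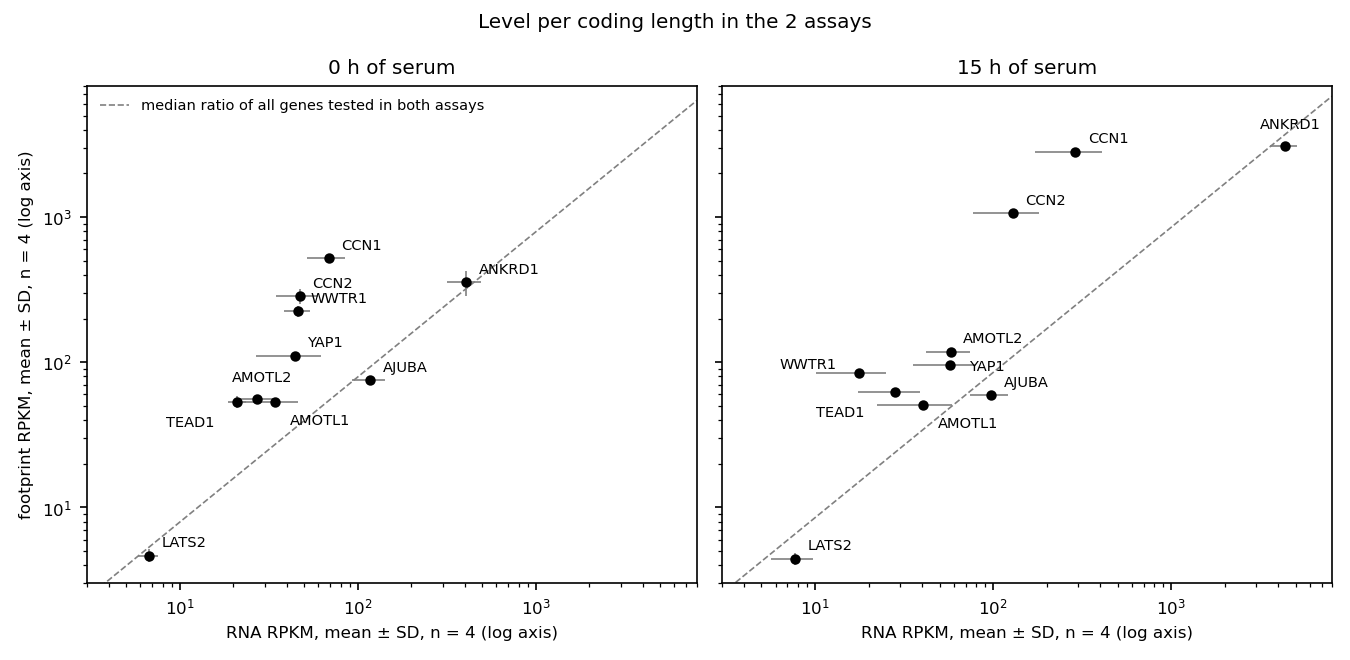
Footprint RPKM (y axis, log) against RNA RPKM (x axis, log) of each gene at 0 h and 15 h, as means with SD over 4 libraries. CCN1 and CCN2 lie far above the dashed line, the median ratio of 0.793 and 0.851 over all genes tested in both assays, and ANKRD1 lies near it.

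In footprints the order of the 2 coactivators per length was reversed between 0 h and 15 h. The ratio of YAP1 to WWTR1 footprints per coding length was 0.498 ± 0.0624 (SD, n = 4) at 0 h, from 0.451 to 0.587. It was 0.838 ± 0.0418 at 5 h, 1.01 ± 0.0391 at 10 h and 1.14 ± 0.0438 at 15 h, from 1.11 to 1.202, and no time overlapped with another. In RNA the ratio was 0.936 ± 0.245, 1.81 ± 0.205, 2.78 ± 1.04 and 3.37 ± 0.669 at 0, 5, 10 and 15 h, where 0 h did not overlap with any later time. The RNA ratio was already above 1 at 0 h in replicates 2 and 3, at 1.11 and 1.18. At 10 h and 15 h it divides by WWTR1 RNA of 14 to 29 and 10 to 34 counts per library. A ratio shows unequal change, and the tests above give the change of each gene.

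The ratio of AMOTL2 to AMOTL1 footprints was 1.05 ± 0.0243, 2.03 ± 0.124, 2.11 ± 0.0973 and 2.34 ± 0.172 at 0, 5, 10 and 15 h. Its 0 h libraries, from 1.02 to 1.08, lay below all later ones. In RNA it was 0.843 ± 0.284, 1.61 ± 0.286, 1.40 ± 0.158 and 1.54 ± 0.392, and 0 h replicate 1, at 1.26, lay above 1 library of 10 h (1.19) and 2 of 15 h (1.198 and 1.24). The ratio of CCN1 to CCN2 footprints was 1.84 ± 0.177, 2.81 ± 0.132, 2.04 ± 0.0982 and 2.64 ± 0.176 in the same order, so it was high at 5 h and 15 h. In RNA it was 1.47 ± 0.161, 2.36 ± 0.285, 1.56 ± 0.121 and 2.24 ± 0.294, with the same high times and no overlap between 5 h and 10 h.

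**Figure D4:**
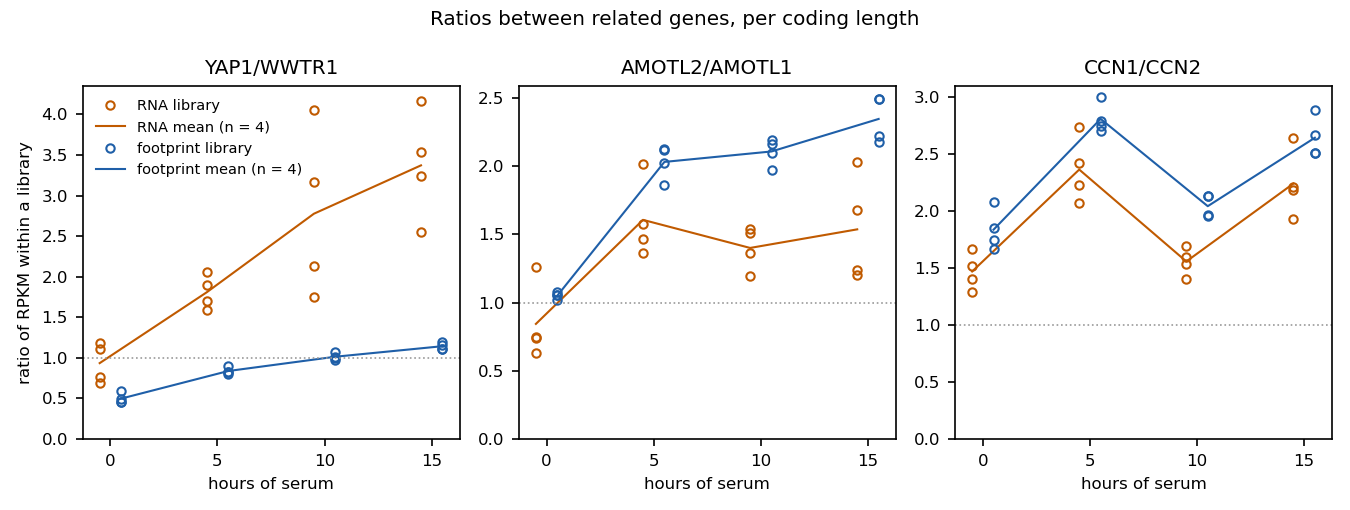
Ratio of RPKM between 2 related genes (y axis, from 0) within each RNA or footprint library against hours of serum (x axis), lines joining means of 4 libraries. YAP1 to WWTR1 in footprints goes from 0.498 at 0 h to 1.14 at 15 h, past the dotted line at 1.

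Over the 16 footprint libraries, log2 CPM of CCN1 had a Pearson r of 0.981 with CCN2, 0.971 with ANKRD1 and 0.985 with AMOTL2. YAP1 had 0.913 with AMOTL1 and 0.595 with WWTR1. In RNA the r of these pairs was 0.953, 0.814, 0.939, 0.828 and 0.0567 in the same order. These points share their libraries and 4 time points, so that they describe the shared time course. Among 7982 genes with at least 10 footprint CPM on average, CCN1 was most like MTHFD2 (r = 0.996), a mitochondrial folate enzyme, and TNFRSF12A (0.995), the receptor Fn14. In RNA the 2 correlations were 0.863 and 0.892. ANKRD1 was most like PFKP (0.996), a phosphofructokinase, and GSPT1 (0.995), a translation release factor, with 0.773 and 0.937 in RNA. CCN2 was most like RACK1 and RPLP0 (both 0.997), proteins of the ribosome, but their RNA went the other way, with r of -0.41 and -0.62. YAP1 was most like ZBTB41 (0.94) and GBP3 (0.934), with -0.33 and -0.18 in RNA.

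Other genes of the pathway were counted in 5 lists taken from general knowledge, with earlier results of these data known. Their counts stand beside the shares of all genes: at 5 h 35.2% were called higher and 40.5% lower in footprints, and 19.2% and 16.7% in RNA. At 15 h the shares were 40.1% and 39.6% in footprints and 25.4% in each direction in RNA. Of 6 genes of the kinase core, 5 were tested. At 5 h in footprints 3 of these were called higher and 2 lower, with a median log2 change of 0.17 against -0.07 over all genes. SAV1, the scaffold of the core, went from 9.70 ± 2.02 to 5.65 ± 0.791 CPM (-0.80 ± 0.16), and the kinase STK3 from 30.9 ± 4.49 to 18.6 ± 1.40 CPM (-0.70 ± 0.10). The related kinase STK4 went from 48.2 ± 3.24 to 71.7 ± 3.72 CPM (0.58 ± 0.07). At 15 h, 4 of the 5 were called higher in footprints and 0 lower (40.1% and 39.6% of all genes), and STK3 was among them at 0.61 ± 0.09. In RNA, 2 of the 5 were called higher and 0 lower at 5 h, although their median was -0.17. The RNA changes of SAV1 (-0.24 ± 0.33) and STK3 (-0.17 ± 0.25) were not called, and STK4 was called higher (0.66 ± 0.22).

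All 15 upstream regulators were tested in footprints, and 7 were called higher and 6 lower at 5 h (35.2% and 40.5% of all genes), with a median of 0.20. AMOT, the founding angiomotin, went from 20.3 ± 1.54 to 4.90 ± 0.523 CPM, a change of -2.03 ± 0.13, opposite to AMOTL2. The scaffold RASSF1 went from 3.89 ± 0.679 to 14.6 ± 0.585 CPM (1.95 ± 0.15) and reached 3.75 ± 0.12 at 15 h. WWC1, the adaptor KIBRA, went from 9.43 ± 1.07 to 23.2 ± 2.03 CPM (1.29 ± 0.12). In RNA, 3 of 13 tested were called higher and 2 lower at 5 h (19.2% and 16.7% of all genes). AMOT was not tested in RNA, RASSF1 was not called (0.64 ± 0.40) and WWC1 was called higher (1.43 ± 0.24).

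Of 8 antagonists of the kinases, LIM proteins and subunits of the STRIPAK phosphatase complex, 6 were tested, and at 5 h 4 were called higher and 0 lower in footprints (median 0.35), where 35.2% and 40.5% of all genes were. WTIP, a LIM protein of the AJUBA family, went from 3.55 ± 0.233 to 7.34 ± 0.843 CPM (1.03 ± 0.19), where AJUBA fell. The striatins STRN4 (0.56 ± 0.08) and STRN3 (0.40 ± 0.06) were also called higher. In RNA, 3 of 6 were called higher and 0 lower at 5 h (19.2% and 16.7% of all genes).

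Of the 7 other TEAD factors and Vestigial-like cofactors, 4 were tested in footprints, and at 5 h 1 was called higher and 2 lower (median -0.34), beside 35.2% and 40.5% of all genes. TEAD4 went from 7.88 ± 0.435 to 18.5 ± 1.52 CPM (1.22 ± 0.13). TEAD2 went from 25.3 ± 2.40 to 11.9 ± 1.83 CPM (-1.07 ± 0.11) and TEAD3 from 14.5 ± 0.884 to 9.76 ± 1.24 CPM (-0.56 ± 0.12). At 15 h these 3 had changes of 1.62 ± 0.12, -0.61 ± 0.10 and -0.59 ± 0.12, so that the 4 TEAD genes, TEAD1 included, did not move together. VGLL4, a cofactor that competes with YAP for TEAD, was called lower at 15 h (-1.18 ± 0.31). In RNA only 2 of the 7 could be tested, and 1 was called in each direction at 5 h. These were TEAD4 (higher) and TEAD2 (lower), so TEAD3 and VGLL4 have no RNA test.

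The list of other YAP/TEAD target genes held 17. Of these, all tested in footprints, 9 were called higher and 7 lower at 5 h (median 0.28), beside 35.2% and 40.5% of all genes. At 15 h, 10 were called higher and 4 lower (median 0.24), beside 40.1% and 39.6%. F3, the gene of tissue factor and the target with the largest change, went from 50.4 ± 5.69 to 2779 ± 223 CPM (5.79 ± 0.08). The growth factor binding protein gene IGFBP3 went from 25.3 ± 3.81 to 86.6 ± 17.3 CPM (1.79 ± 0.14), and FJX1, a secreted protein gene, from 6.19 ± 1.31 to 21.5 ± 3.21 CPM (1.73 ± 0.18). In RNA, 5 of 15 tested were called higher and 1 lower at 5 h (19.2% and 16.7% of all genes), and 8 higher and 2 lower at 15 h (25.4% in each direction).

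**Figure D5:**
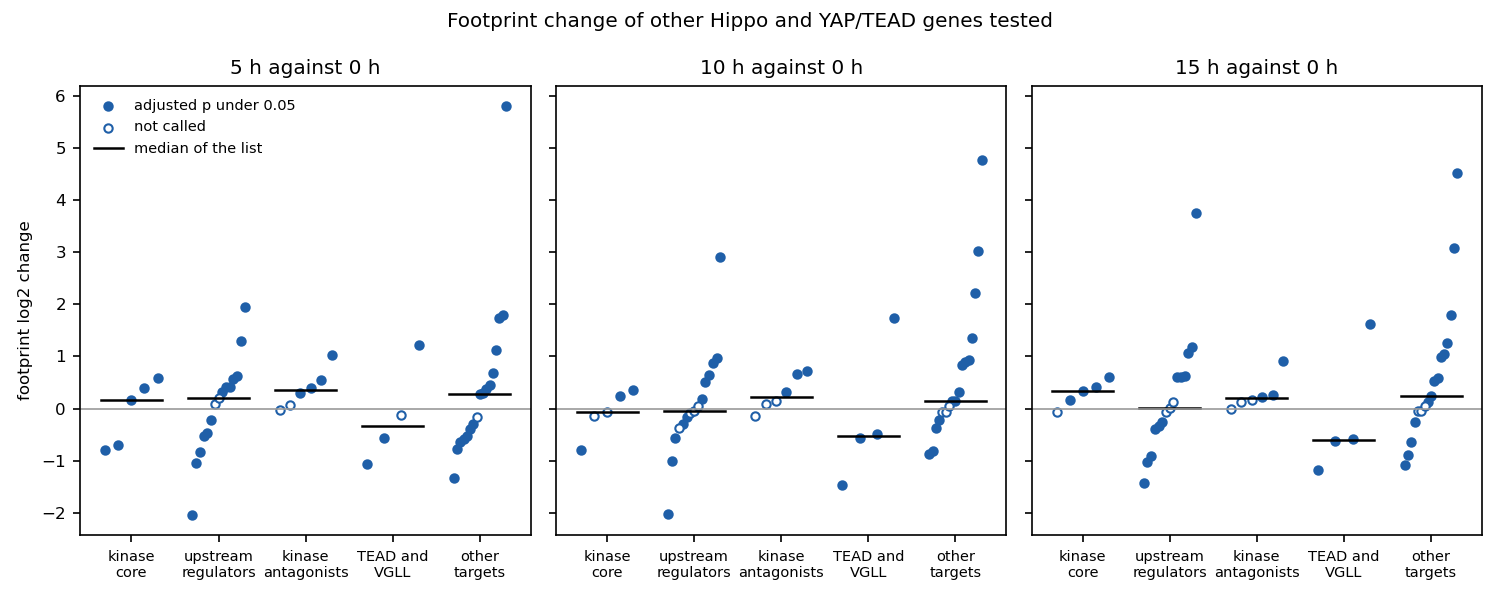
Footprint log2 change against 0 h (y axis) of each tested gene in the 5 lists (x axis) at 5, 10 and 15 h, filled where called by edgeR at an adjusted p under 0.05, with the median of each list as a line. F3 stands at 5.79 at 5 h, and the medians of the lists lie between -0.60 and 0.35.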

How the data were processed

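The deposited table holds raw counts per gene and library, whole numbers that the authors obtained, per the submitters' processing notes, with STAR 2.5.4a, GRCh38 and featureCounts 1.5.1; annotation release, strand setting and read filters are not given in the sources used here. Per the file headers it also gives a length per gene, a multiple of 3 for 96.5% of genes and so read as coding length. RNA libraries were built with a small-RNA library kit, per the labels' protocols. Of 19023 Ensembl identifiers, 18905 were matched to a symbol. Total counts were 595851 to 1107470 per RNA library and 2851423 to 9901322 per footprint library. Counts are of reads, so that errors cover the spread between libraries and not between molecules.

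Each assay was fitted over its 16 libraries with edgeR 4.0.16 (R 4.3.3): TMM factors, filterByExpr by time (minimum count 10), and a robust quasi-likelihood test with time as the factor. TE was the interaction of assay and time over 32 libraries. Genes tested numbered 8775 in RNA, 10959 in footprints and 8736 for TE, with a common biological coefficient of variation of 0.185, 0.0547 and 0.102. The p-values are 2-sided and adjusted by Benjamini-Hochberg over all genes of a contrast; an SE is the log2 change over the root of its F statistic. CPM and RPKM use TMM-scaled sizes. Scripts were tested on simulated data.

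All 10 members are named whatever their values. Of each of 5 lists the text names up to 3 members with the largest absolute change among those called in footprints at 5 h, and for CCN1, CCN2, ANKRD1 and YAP1 the 2 genes with the highest Pearson r of log2 CPM (prior count 2). Values of STK3, RASSF1, VGLL4 and the TEAD genes at 15 h were chosen after they were seen. Members and lists were chosen with earlier results of these data known. Listed genes that were not tested were not analysed here.

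Alternatives were RLE factors, DESeq2 1.42.0, all genes with a count, the replicate number as a block, only the groups compared and each library left out. Leaving out all libraries of 1 number was added after seeing the data. The deviations of same-numbered libraries from their group means had r over 0.1 in all 4 pairs (0.124 to 0.348) in RNA at 15 h against 0 h. Libraries of different numbers reached an r of 0.438 there, and 2 of 4 libraries matched best with their own number. The labels do not say what a number shares.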

Additional observations from a re-analysis of the deposited data

Results flagged for a closer look

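In 80 groups of 4 libraries (10 genes, 4 times and 2 assays), 6 groups had 1 library far from the other 3 on Dixon's criterion at the 95% level, and chance alone marks about 1 in 20 groups. Of these, 4 were RNA libraries numbered 2. At 15 h that library had 206 CPM for CCN2 (next 107), 199.97 CPM for AMOTL2 (next 128) and 131 CPM for YAP1 (next 68.4). At 10 h it had 28.8 CPM for LATS2 (next 19.5). In footprints, AMOTL1 was highest in replicate 4 at 0 h, with 149.6 CPM (next 139.6), and CCN1 lowest in replicate 1 at 5 h, with 3131 CPM (next 3490.2).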

How the results depend on the processing

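No value of the 10 genes that was called changed its sign under any alternative run. Against 0 h, the number of genes called in RNA and footprints stayed within 1.5 times under every alternative. The RNA contrast of 10 h with 5 h, with 1 gene called, had 0 with RLE factors, 0 with DESeq2 and 0 with all genes that have a count. It had 0 to 1 when libraries were left out. The RNA contrast of 15 h with 10 h had 0 to 1 when libraries were left out, and so had TE at 15 h against 0 h. The footprint contrast of 15 h with 10 h had 3 to 5 when libraries were left out, against 5. In that contrast the CCN2 call also ended under DESeq2 (adjusted p = 0.0654), and the ANKRD1 call with all genes that have a count (adjusted p = 0.0735); over all alternatives the adjusted p reached 0.144 and 0.145. TEAD1 footprints at 5 h were called with all genes that have a count (0.17, adjusted p = 0.0313), where the range over alternatives was 0.0313 to 0.375. The cause was not tested.

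With the replicate number as a block, 2 genes were called in RNA at 10 h against 5 h (WWTR1 and CCN1), 1 at 15 h against 10 h (ANKRD1), and WWTR1 was called at 5 h against 0 h (-0.52, adjusted p = 0.0313). RNA calls over all 8775 genes rose as well. At 10 h against 5 h they went from 887 higher and 839 lower to 1178 and 1275. At 15 h against 10 h they went from 334 and 185 to 629 and 541. At 5 h against 0 h they went from 1681 and 1468 to 2018 and 1893. In footprints at 15 h against 10 h the block ended the CCN2 call (adjusted p = 0.0518) and TEAD1 was called (0.041). There was also 1 each in TE at 5 h (ANKRD1, -0.47, adjusted p = 0.0456) and 15 h (YAP1, -0.72, adjusted p = 0.00306) against 0 h. Over all alternatives those adjusted p ran from 0.0456 to 0.817 and from 0.00306 to 0.379. Among all 8736 genes, TE calls at 5 h went from 361 higher and 204 lower to 585 and 463 with the block. At 15 h they went from 614 and 344 to 874 and 668. Only RNA at 15 h against 0 h met the rule for paired numbers, an r over 0.1 in all 4 pairs, and there the block left 5 called. Libraries of different numbers reached a higher r in that contrast, so meeting the rule does not establish pairing. In footprints same-numbered libraries had a lowest r of -0.06, and in RNA of -0.27; in footprints at 5 h against 0 h, 4 of 4 numbers matched best with their own, as a hint from the data. In RNA the changes of AMOTL1, LATS2, TEAD1 and YAP1 had an SE of 0.26 to 0.30 at 5 h. Their footprint changes at 5 h were 0.31, 0.50, 0.12 and 0.20. Whether changes of that size could be detected in RNA was not tested. The parts of depth and of the spread between libraries were not tested either.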
